A study of Mus musculus with 7 samples.

Results

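The integrins and Cd44 measured here are 10 adhesion receptor genes of the mouse, the 9 integrin subunit genes Itgb1, Itgb7, Itgb2, Itga4, Itga6, Itgav, Itgal, Itgax and Itgae together with Cd44. They were taken by name: every probe set whose platform annotation gives 1 of these symbols and no other was a member, whatever its values. This gave 29 probe sets for 10 of the 18194 genes with such a probe set on the array. At least 1 probe set of each of the 10 genes passed the filter on low values (log2 of at least 5 on at least 2 arrays), 20 of the 29 in all. The other 9 lay between log2 1.9 and 4.09 on every array, with no more than 0.99 between the arrays of any one of them, and were not tested.

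RNA was measured in OT-I cells, CD8 T cells carrying a transgenic receptor for an ovalbumin peptide. CD44lo cells of Ly5.1 OT-I donors were selected, stained with the division dye CFSE and injected into hosts of the C57BL/6 strain, so the cells of every group started with little CD44 on the surface. In RIP-OVAhi hosts the rat insulin promoter drives ovalbumin, a model of deletional tolerance, and divided cells came from the sacral and pancreatic lymph nodes of 20 pooled mice for each of 2 arrays. OCS/LPS hosts received ovalbumin-coated splenocytes and lipopolysaccharide, a model of immunity, and divided cells came from the spleens of 10 pooled mice for each of 2 arrays. Rag hosts, Rag-/- mice without T and B cells of their own, gave 1 array of divided cells from the spleens of 10 pooled mice, a model of lymphopenia-induced proliferation. Naive cells were undivided cells from the spleens of 10 pooled B6 mice without the antigen, for each of 2 arrays. Divided cells had gone through at least 2 divisions and were sorted at 60 h, as were the naive cells, or at 5 days in Rag hosts. The RIP-OVAhi host and the lymph node, and the Rag host and the later day, therefore cannot be told apart. Nothing in the labels ties the arrays of a group to separate experiments, and the p-values cover only how far these arrays differ from each other, possibly for technical reasons.

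An integrin is a pair of an alpha and a beta chain that spans the membrane. The beta chain's tail binds talin and kindlin when signals from the antigen or chemokine receptors switch the pair to its high-affinity shape, and vinculin and other adaptors then tie it to actin. On T cells alpha L beta 2 (LFA-1) holds the cell to ICAM ligands on antigen-presenting cells, alpha 4 pairs with beta 1 to bind VCAM-1 and fibronectin or with beta 7 to bind MAdCAM-1, and alpha E beta 7 (CD103) binds E-cadherin on epithelium. CD44 is a hyaluronan receptor whose surface level is the usual mark of antigen-experienced T cells.

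The values are log2 expression. The members of the T cell marker list were all at log2 5 or more on every array, 7 of 7 genes. The 2 arrays of a group correlated with r of 0.9905 for RIP-OVAhi, 0.9908 for OCS/LPS and 0.9718 for naive cells over the tested probe sets. The Gapdh 3' minus 5' control difference, a sign of RNA length, was 2.03 to 2.08 on RIP-OVAhi arrays, 1.85 to 1.89 on OCS/LPS arrays, 2.21 in Rag and 2.43 to 2.59 in naive arrays. It thus moved with the groups, and its part in the results was not tested. In bulk RNA, fewer cells that express a gene and less RNA per cell cannot be told apart.

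Across the 10 genes, Itgb1, Cd44 and, by less, Itgal were higher than in naive cells in both groups that met antigen, and Itgae was higher in RIP-OVAhi than in OCS/LPS cells. Itgax was above background on the OCS/LPS arrays alone. Against naive cells, 4 of the 10 genes were called higher and 0 lower in RIP-OVAhi cells (limma, Benjamini-Hochberg adjusted p under 0.05 over all tested probe sets). There 27.0% of all tested probe sets were called, 15.0% higher and 12.0% lower. In OCS/LPS cells 5 genes were higher and 1 lower, with 32.3% of all tested probe sets called, 18.0% higher and 14.3% lower. In Rag cells 1 gene was higher and 0 lower, with 1.82% called, 1.29% higher and 0.533% lower. A large part of the array was thus called in RIP-OVAhi and OCS/LPS cells. The share of members called there was larger, but 10 genes are few and the difference in share was not tested. The median difference of the 10 genes was 0.52 for RIP-OVAhi, 0.5 for OCS/LPS and 0.2 for Rag cells, beside 0.02, 0.03 and 0.05 over all tested probe sets. The 3 comparisons share the naive arrays. Itgax passed the filter only through its OCS/LPS values, so it had to differ; its place in the counts follows from the filter, and no count here is support for a change of the whole family.

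**Figure D1:**
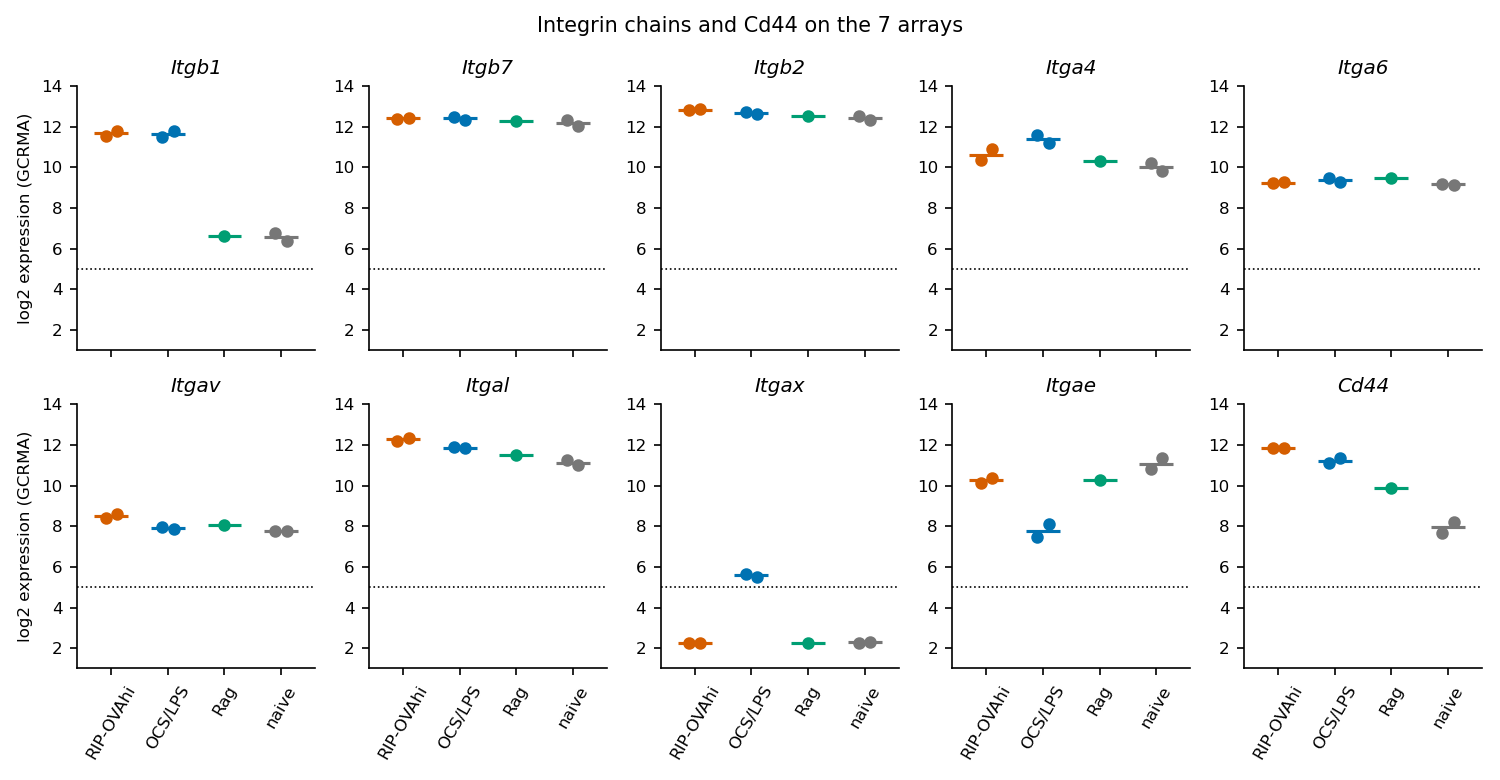
Log2 expression of the representative probe set of each of the 10 genes, 1 point per array, with RIP-OVAhi, OCS/LPS and Rag left of naive cells in each panel, a bar at each group mean and a dotted line at log2 5. Itgb1 lies between 11.49 and 11.80 on the 4 arrays of cells that met antigen and between 6.37 and 6.78 on the Rag and naive arrays, and Itgax is above 5 only in OCS/LPS cells.

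Itgb1, on chromosome 8, encodes the beta 1 chain, the partner of alpha 4 and alpha 6. It had log2 expression of 11.54 and 11.80 in RIP-OVAhi cells, 11.49 and 11.78 in OCS/LPS cells and 6.63 in Rag cells, against 6.78 and 6.37 in naive cells. All 4 arrays of cells that met antigen were far above the others, and the Rag array lay inside the naive range. The RIP-OVAhi minus naive difference was 5.09 (SE 0.20, 34.1-fold, limma adjusted p = 7.68e-05), and the OCS/LPS minus naive difference was 5.06 (SE 0.20, 33.3-fold, limma adjusted p = 6.71e-05). The first of these ranked 84 and the second 111 by size among 16140 tested probe sets. Rag cells differed from naive cells by 0.06 (SE 0.25, unadjusted 95% interval -0.56 to 0.67, limma adjusted p = 0.944), and from RIP-OVAhi cells by 5.04 in favour of RIP-OVAhi (SE 0.25, limma adjusted p = 0.00058). Between RIP-OVAhi and OCS/LPS cells the difference was 0.03 (95% interval -0.47 to 0.54). An interval that includes 0 does not show that the groups are equal. The promoter window of Itgb1, with those of Cd44 and Itgax, is printed because Itgb1 and Cd44 were raised most in RIP-OVAhi cells and Itgax was seen in 1 group alone. Each window runs 5' to 3' on the gene's own strand from RefSeq on GRCm38.p6, and capitals mark matches to the motifs searched.
Itgb1, chr8:128685404-128685703, plus strand: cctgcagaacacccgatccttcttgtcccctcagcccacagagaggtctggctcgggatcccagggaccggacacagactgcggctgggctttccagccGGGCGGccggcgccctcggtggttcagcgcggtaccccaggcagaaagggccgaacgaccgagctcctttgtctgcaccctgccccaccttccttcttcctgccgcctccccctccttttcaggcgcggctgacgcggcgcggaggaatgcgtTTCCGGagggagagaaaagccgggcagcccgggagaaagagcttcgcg
Cd44, chr2:102901616-102901915, minus strand: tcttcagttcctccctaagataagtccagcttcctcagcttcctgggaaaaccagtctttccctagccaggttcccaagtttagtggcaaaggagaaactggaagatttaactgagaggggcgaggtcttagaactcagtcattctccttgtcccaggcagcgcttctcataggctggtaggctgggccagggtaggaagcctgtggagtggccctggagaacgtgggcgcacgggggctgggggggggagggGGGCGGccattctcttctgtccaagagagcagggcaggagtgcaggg
Itgax, chr7:128129300-128129599, plus strand: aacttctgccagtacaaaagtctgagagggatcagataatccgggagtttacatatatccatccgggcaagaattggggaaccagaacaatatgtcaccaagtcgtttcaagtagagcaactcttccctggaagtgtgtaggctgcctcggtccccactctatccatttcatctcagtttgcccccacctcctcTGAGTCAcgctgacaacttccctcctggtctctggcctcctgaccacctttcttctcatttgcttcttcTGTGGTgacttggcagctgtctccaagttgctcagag

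The letters searched, on both strands, were CCGGAA for ETS, TGTGGT for RUNX, GGGCGG for SP1/KLF, TGANTCA for AP-1 and GGTGTGA for T-box. They occurred in 14.9%, 16.8%, 35.7%, 7.81% and 3.98% of the 32851 promoter windows of the same length, in that order. Itgb1 held an ETS and an SP1/KLF match, Cd44 an SP1/KLF match, and Itgax a RUNX and an AP-1 match. A promoter window was found for 6 members: of the other 3, Itga4 held RUNX, SP1/KLF and T-box matches, Itgav an SP1/KLF match and Itgb7 none. A match describes letters in the window only.

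The other beta chains were high on every array. Itgb7, which pairs with alpha 4 or alpha E, had 12.37 and 12.44 in RIP-OVAhi cells, 12.49 and 12.33 in OCS/LPS and 12.27 in Rag cells, against 12.33 and 12.02 in naive cells. Its differences from naive cells, in that order of groups, were 0.23, 0.23 and 0.10, and none was called (limma adjusted p = 0.329, 0.298 and 0.846). Itgb2, the beta chain of LFA-1, had 12.8 and 12.86 in RIP-OVAhi cells, 12.72 and 12.64 in OCS/LPS and 12.51 in Rag cells, against 12.5 and 12.31 in naive cells. Every array of divided cells lay above both naive arrays, but the differences of 0.42, 0.27 and 0.11 were not called (limma adjusted p = 0.067, 0.174 and 0.794). The RIP-OVAhi value passed with an intensity trend in the prior (adjusted p = 0.029) and without naive array 1 (adjusted p = 0.0283).

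Among the alpha chains, Itgal was higher in both groups that met antigen. Itgal, the alpha L chain of LFA-1, had 12.21 and 12.36 in RIP-OVAhi cells, 11.88 and 11.85 in OCS/LPS and 11.52 in Rag cells, against 11.25 and 11.01 in naive cells. The groups did not overlap, and their order ran from RIP-OVAhi through OCS/LPS and Rag to naive cells, with no neighbours in it called different. RIP-OVAhi cells exceeded naive cells by 1.15 (SE 0.15, limma adjusted p = 0.00412) and OCS/LPS cells by 0.73 (SE 0.15, limma adjusted p = 0.0152), while the Rag difference of 0.39 was not called. The OCS/LPS call was lost without OCS/LPS array 1 or 2 (adjusted p = 0.0914 and 0.0936). The other probe set of Itgal was also called higher in both (limma adjusted p = 0.0012 and 0.00239). Its naive mean of 4.94 was near background, so the sizes are bounds, at least 4.63-fold for RIP-OVAhi and 3.29-fold for OCS/LPS cells.

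Itga4, the alpha 4 chain, had 10.37 and 10.88 in RIP-OVAhi cells, 11.57 and 11.18 in OCS/LPS and 10.31 in Rag cells, against 10.20 and 9.82 in naive cells. OCS/LPS cells were highest, 1.37 above naive cells (SE 0.25, 2.58-fold, limma adjusted p = 0.0115), a call lost with no filter (0.0796) and without OCS/LPS array 1 or 2 (0.0834 and 0.0542). The RIP-OVAhi difference of 0.62 was not called (adjusted p = 0.125), nor was RIP-OVAhi minus OCS/LPS, at -0.75 (adjusted p = 0.241). Probe sets of Itga4 disagreed. One further set was called higher in RIP-OVAhi (1.48) and OCS/LPS cells (1.77). Another lay near background outside OCS/LPS cells, passed the filter through them alone, and stood there at least 1.22-fold above the log2 5 mark. The last tested set was not called (-0.05 and 0.60).

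Itgav, the alpha V chain of vitronectin receptors, had 8.43 and 8.59 in RIP-OVAhi cells, 7.98 and 7.85 in OCS/LPS and 8.05 in Rag cells, against 7.75 and 7.76 in naive cells. RIP-OVAhi cells were 0.75 above naive cells (SE 0.13, 1.69-fold, limma adjusted p = 0.0118), and the OCS/LPS difference was 0.16 (adjusted p = 0.401). These rest on the 1 tested set of 5, and the others stayed between log2 2.49 and 3.34 on every array. The RIP-OVAhi call was lost without RIP-OVAhi array 1 (0.0623) or 2 (0.0964), and the difference between RIP-OVAhi and OCS/LPS cells, 0.60, was not called (adjusted p = 0.107). Itga6, the alpha 6 chain of laminin receptors, had 9.24 and 9.25 in RIP-OVAhi cells, 9.45 and 9.29 in OCS/LPS and 9.49 in Rag cells, against 9.19 and 9.14 in naive cells. No comparison called it, and its 2 probe sets differed in sign in RIP-OVAhi cells (0.08 and -0.42).

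Itgax, the alpha X chain (CD11c) best known on dendritic cells, was above background in OCS/LPS cells alone among these arrays. It had 2.25 and 2.27 in RIP-OVAhi cells, 5.64 and 5.52 in OCS/LPS cells and 2.26 in Rag cells, against 2.27 and 2.29 in naive cells. Since all other groups were near background, the OCS/LPS mean is given only as at least 1.49-fold above the log2 5 mark. The gene was among those tested because of these 2 arrays, so its values are a description and no p is given. A filter at log2 6 leaves it out.

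Markers of cells known for CD11c were read beside it. Of a list of 17 myeloid and dendritic cell genes, 0 were at log2 5 or more on both RIP-OVAhi arrays, 2 and 3 on the OCS/LPS arrays and 7 on the Rag array, against 2 and 3 on the naive arrays. The summed log2 level was 47.6 and 45.7 in RIP-OVAhi cells, 53.8 and 56.9 in OCS/LPS cells and 77.1 in Rag cells, against 54.5 and 56.6 in naive cells. The OCS/LPS range of the list overlapped the naive range. Which cells gave the Itgax RNA was not tested. The dendritic cell genes Zbtb46, Flt3, Xcr1, Siglech and Batf3 were near background on all 7 arrays, the highest value being 3.68 for Zbtb46. Lyz1, lysozyme, had 2.94 and 3.36 in RIP-OVAhi cells, 7.4 and 8.23 in OCS/LPS cells and 8.46 in Rag cells, against 7.94 and 8.67 in naive cells. On the Rag array, Csf1r of macrophages was at 8.51, C1qb at 7.42 and Itgax at 2.26. MHC class II genes, also of B cells, summed to 24.1 and 25.5 in RIP-OVAhi cells, 32.0 and 35.2 in OCS/LPS cells and 38.6 in Rag cells, against 32.6 and 33.0 in naive cells. H2-DMa of this list ran the other way, at 8.53 and 8.49 in RIP-OVAhi and 7.45 and 7.33 in OCS/LPS cells. It was the 1 call of 5 tested in OCS/LPS against naive cells, at -0.85 (limma adjusted p = 0.0357), beside 14.3% of all tested probe sets called lower. In OCS/LPS cells the 4 tested myeloid genes differed from naive cells by 1.5 (S100a8), 0.07 (Lyz2), -0.48 (Lyz1) and -0.57 (C1qb), none called. On the OCS/LPS and naive arrays, S100a8 reached log2 5 on OCS/LPS array 2 alone (5.28). C1qb did so on naive array 2 alone (5.13), so the sizes of both are not exact. Of 3 tested B cell and plasma cell genes, 1 was called higher in OCS/LPS than in naive cells, Jchain by 1.22 (limma adjusted p = 0.0178), beside 18.0% of all tested probe sets.

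**Figure D2:**
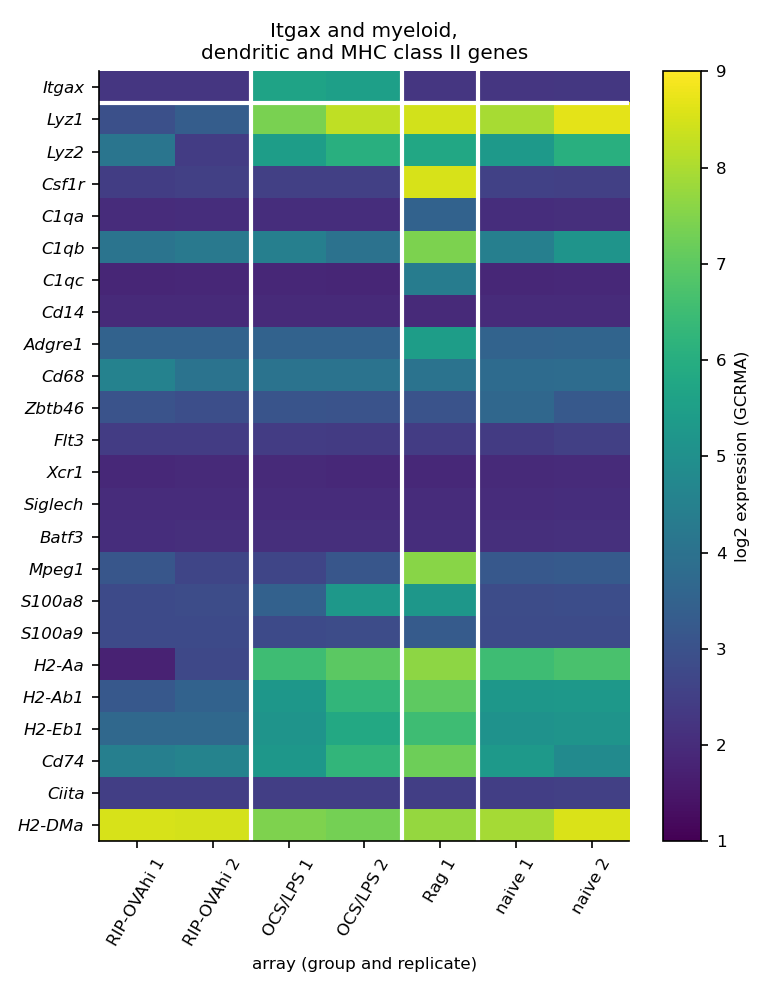
Heat map of log2 expression of Itgax (top row) and of the myeloid, dendritic cell and MHC class II genes (rows below) on the 7 arrays (columns), from dark (low) to yellow (high). Itgax was 5.64 and 5.52 on the OCS/LPS arrays and 2.25 to 2.29 on all others, while Csf1r and C1qb were highest on the Rag array.

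Itgae, the alpha E chain of CD103, was the 1 member called lower than in naive cells. It had 10.13 and 10.39 in RIP-OVAhi cells, 7.46 and 8.12 in OCS/LPS and 10.26 in Rag cells, against 10.80 and 11.37 in naive cells. Both OCS/LPS arrays lay below every other array. OCS/LPS cells fell by 3.29 relative to naive cells (SE 0.29, limma adjusted p = 0.00106), and a second probe set by 3.40 (limma adjusted p = 0.000512). The RIP-OVAhi difference of -0.82 was not called (adjusted p = 0.0897), though it was with the replicate number as a block (-0.823, limma adjusted p = 0.0238), and the Rag difference, also -0.82, was not either (adjusted p = 0.334).

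Between RIP-OVAhi and OCS/LPS cells, Itgae was 2.47 higher in RIP-OVAhi (SE 0.29, 5.54-fold, limma adjusted p = 0.0201), and 2.66 higher by the second probe set (adjusted p = 0.00952). The first call was lost without any 1 of the 4 arrays (adjusted p = 0.105 to 0.219) and with no filter (0.149). Of the 10 genes, 1 was called higher in RIP-OVAhi cells, Itgae, and 1 lower, Itgax, whose call follows from the filter; 2.09% of all tested probe sets were called there, 1.18% higher and 0.905% lower. OCS/LPS cells were also below Rag cells in Itgae by 2.47 (SE 0.36, limma adjusted p = 0.0112), which was no longer called with no filter (0.072) or when OCS/LPS array 1 was left out (0.0594). The representative set's name ends in _s_at, which Affymetrix gives to probes shared by more than 1 transcript, and the second set carries no such mark.

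Cd44 was higher in all 3 divided groups. It had 11.86 and 11.84 in RIP-OVAhi cells, 11.11 and 11.34 in OCS/LPS and 9.89 in Rag cells, against 7.67 and 8.23 in naive cells. The 4 groups did not overlap, and the Rag array stood between the cells that met antigen and the naive cells. The difference from naive cells was 3.90 for RIP-OVAhi (SE 0.21, 14.9-fold, limma adjusted p = 0.000218), 3.27 for OCS/LPS (SE 0.21, 9.65-fold, limma adjusted p = 0.000353) and 1.94 for Rag cells (SE 0.26, 3.84-fold, limma adjusted p = 0.0288). Since donor cells were chosen as CD44lo, the naive level is that of selected cells. The Rag call was lost with no filter (0.0946), without either RIP-OVAhi array (0.135) and without either OCS/LPS array (0.119). These 4 arrays enter the estimate of spread but not the difference. On the Rag array 7 of 17 myeloid and dendritic cell markers were at log2 5 or more, and their part in its Cd44 level was not tested.

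In Cd44, RIP-OVAhi cells stood 0.63 above OCS/LPS cells (95% interval 0.10 to 1.15, limma adjusted p = 0.252), which was not called. Against Rag cells, 3 of the 10 genes were higher and 0 lower in RIP-OVAhi cells (14.1% of all tested probe sets called, 7.54% higher and 6.59% lower): Itgb1, Cd44 by 1.96 (limma adjusted p = 0.00903) and Itgal by 0.76 (limma adjusted p = 0.0441). The Cd44 call was lost without RIP-OVAhi array 1 (0.0706) or 2 (0.0737) and with no filter (0.0532). That of Itgal was lost with no filter (0.0809), with arrays centred on their medians (0.0556), without RIP-OVAhi array 1 or 2 (0.141 and 0.201) and without either OCS/LPS array (0.112). In OCS/LPS against Rag cells, 3 genes were higher and 1 lower (16.3% called, 8.67% higher and 7.63% lower): Itgb1, Itgax and Cd44 higher, the last by 1.33 (limma adjusted p = 0.0261), and Itgae lower. The Itgax call follows from the filter. The Cd44 call there was lost without either RIP-OVAhi array (0.082), without OCS/LPS array 1 or 2 (0.101 and 0.14) and with no filter (0.109).

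**Figure D3:**
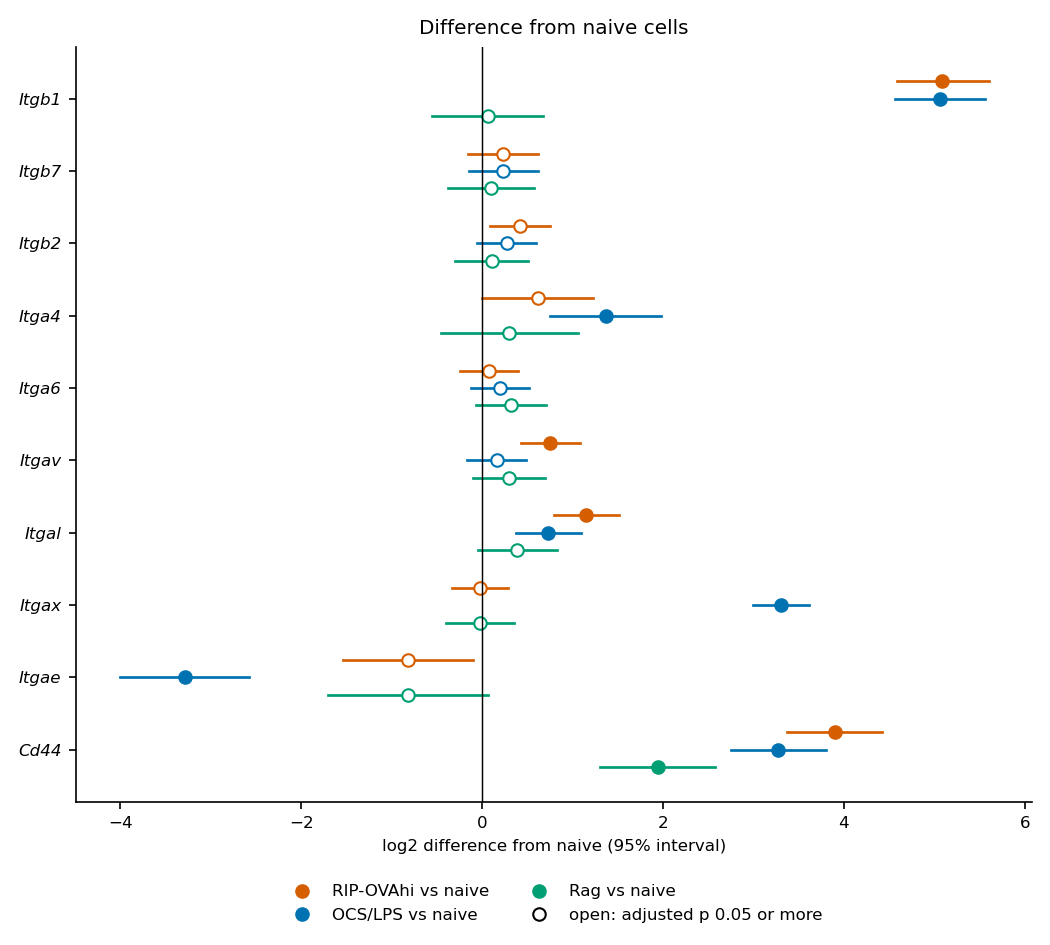
Log2 difference from naive cells for the representative probe set of each of the 10 genes in RIP-OVAhi, OCS/LPS and Rag cells, with unadjusted 95% intervals from the limma fit and open points where the adjusted p was 0.05 or more. Itgb1 stands at 5.09, 5.06 and 0.06, Cd44 at 3.90, 3.27 and 1.94, and Itgae at -0.82, -3.29 and -0.82. The filled point of Itgax in OCS/LPS cells follows from the filter. Its naive values were near background, so its size and interval are not exact.

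Probe sets of 1 gene were compared by their differences, not their levels. Of the 6 sets of Itgb1, 3 were tested, and the rest stayed between log2 1.9 and 3.81 on every array, showing no rise. The other 2 tested sets of Itgb1 were called higher than naive in RIP-OVAhi and OCS/LPS cells and not called in Rag cells. Their naive means, 4.98 and 4.12, were near background. Against the log2 5 mark they were at least 5.66-fold and 41.6-fold higher in RIP-OVAhi cells, and at least 5.74-fold and 40.2-fold higher in OCS/LPS cells. Of the other 2 tested sets of Cd44, one exceeded naive cells by 4.30 in RIP-OVAhi cells, 3.39 in OCS/LPS cells and 2.21 in Rag cells, the last with limma adjusted p = 0.0378. The other had a naive mean of 3.35, near background, and was at least 6.87-fold higher in RIP-OVAhi and 3.14-fold higher in OCS/LPS cells. In Rag cells it was not called (limma adjusted p = 0.151). This set passed the filter only through RIP-OVAhi and OCS/LPS cells, so its calls there are no separate support.

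**Figure D4:**
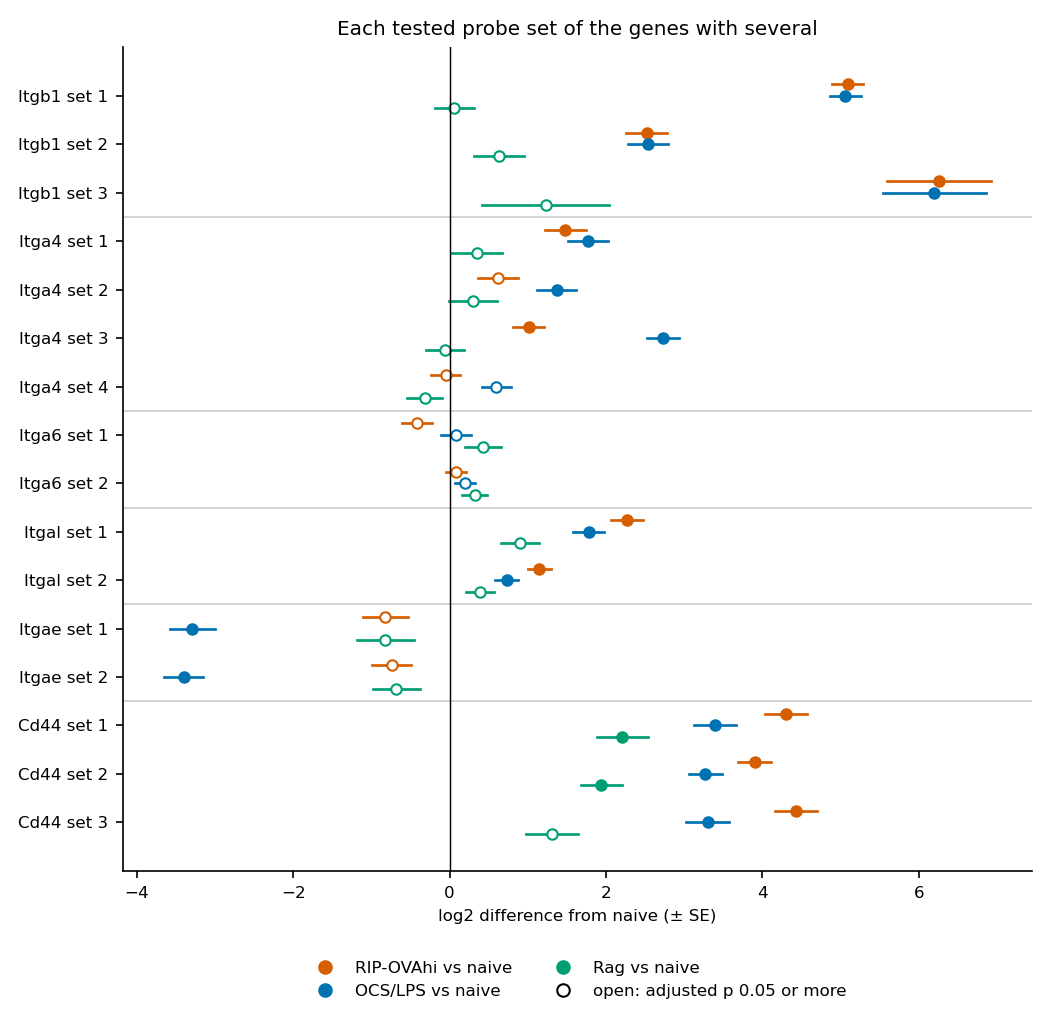
Log2 difference from naive cells for every tested probe set of the genes with more than 1, grouped by gene, in RIP-OVAhi, OCS/LPS and Rag cells, with bars of 1 SE and open points where the adjusted p was 0.05 or more. The 3 sets of Itgb1 and the 3 of Cd44 share a direction in RIP-OVAhi and OCS/LPS cells, though sets with naive values near background have no exact size, while the 4 of Itga4 and the 2 of Itga6 do not all agree in RIP-OVAhi cells.

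The remaining genes of the pathway were read from lists chosen by function. Of 16 other integrin subunits named on the array, 14 stayed at or below log2 3.74 and were not tested. The exception with a call was Itgb3, the beta chain that pairs with alpha V, with 6.31 and 6.7 in RIP-OVAhi cells, 5.72 and 5.84 in OCS/LPS and 5.77 in Rag cells, against 5.02 and 5.03 in naive cells. It was 1.48 higher than naive in RIP-OVAhi (SE 0.17, limma adjusted p = 0.00302) and 0.76 in OCS/LPS cells (SE 0.17, limma adjusted p = 0.0214).

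Of 22 tested activators and adaptors, 5 were higher and 4 lower in RIP-OVAhi cells, 7 higher and 2 lower in OCS/LPS cells, and 1 higher and 0 lower in Rag cells. Of all tested probe sets 27.0%, 32.3% and 1.82% were called in these comparisons, and the list's share was not tested against them. Their medians were 0.32, 0.26 and 0.23. Vcl, vinculin, had 5.11 and 5.44 in RIP-OVAhi cells, 6.16 and 6.49 in OCS/LPS and 5.77 in Rag cells, against 3.61 and 3.79 in naive cells, so all 5 arrays of divided cells were above both naive arrays, which were near background. By the log2 5 mark it was at least 1.21-fold, 2.51-fold and 1.7-fold higher in these groups. Vcl passed the filter only through the divided cells. Its place in the counts above, where it is the 1 call in Rag cells, thus follows from the filter and is no support. Flna, the actin crosslinker filamin A, was higher by 0.93 and 1.05 in RIP-OVAhi and OCS/LPS cells, and Parvg, a parvin that binds the integrin-linked kinase, by 0.94 and 0.74. Zyx, zyxin, was higher by 0.83 in OCS/LPS cells, and Itgb1bp1, an inhibitor of beta 1 integrin activation (ICAP-1), by 0.77 (limma adjusted p = 0.046). Among the lower genes in RIP-OVAhi cells were Apbb1ip, the Rap1 effector RIAM, at -1.09, and Rasgrp2, a Rap1 exchange factor, at -0.93. In OCS/LPS cells they stood at -0.91 and -0.43, not called (limma adjusted p = 0.0528 and 0.194). The naive arrays of Apbb1ip were apart, at 8.37 and 7.53. No member of this list was called between RIP-OVAhi and OCS/LPS cells.

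**Figure D5:**
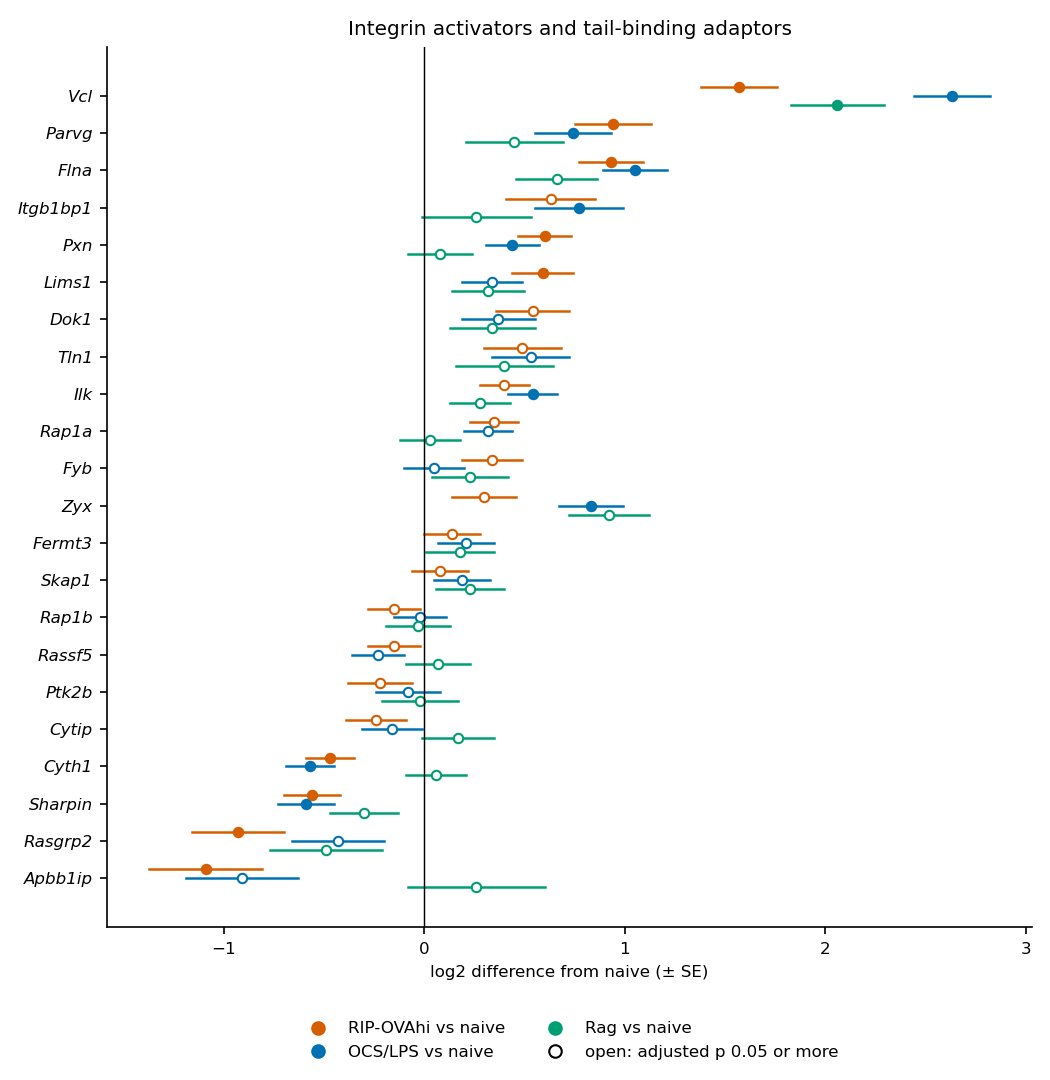
Log2 difference from naive cells of the integrin activators and tail-binding adaptors in RIP-OVAhi, OCS/LPS and Rag cells, with bars of 1 SE and open points where the adjusted p was 0.05 or more. Vcl stands highest, at 1.57, 2.63 and 2.06 from naive values near background, and passed the filter only through the divided cells. Apbb1ip, at -1.09 in RIP-OVAhi and -0.91 in OCS/LPS cells, is among the lowest.

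Of 3 tested integrin ligands, 2 were lower in both groups that met antigen and 0 were called in Rag cells, beside 12.0%, 14.3% and 0.533% of all tested probe sets called lower. Icam1, a ligand of LFA-1, had 9.13 and 9.22 in RIP-OVAhi cells, 8.85 and 8.96 in OCS/LPS and 10.15 in Rag cells, against 9.57 and 9.83 in naive cells, with differences from naive cells of -0.53 and -0.80. Icam2, another ligand of LFA-1, differed by -0.81 and -0.69. Of 8 tested CD44 linkers and related genes, 1 was higher in RIP-OVAhi cells and 2 were in OCS/LPS cells. Of all tested probe sets 15.0% and 18.0% were called higher there. The genes were Adam17, a sheddase, at 0.66 and 0.59, and Nf2 at 0.68 in OCS/LPS cells. Nf2 encodes merlin, a protein related to the ERM linkers. Of 12 tested other adhesion receptors, 4 were higher and 1 lower in RIP-OVAhi cells, 4 higher and 0 lower in OCS/LPS cells, and 0 higher and 1 lower in Rag cells, again beside 27.0%, 32.3% and 1.82% of all tested probe sets called. Alcam, the ligand of CD6, was at 2.32 and 4.06 in naive cells, near background, and was at least 2.14-fold higher in RIP-OVAhi and 2.15-fold higher in OCS/LPS cells. It passed the filter only through those 2 groups, so its place in the counts follows from the filter. Crtam, a nectin-like adhesion receptor of activated CD8 T cells, was higher by 1.14 and 0.60. The tetraspanin Cd9 was higher by 1.05 and 1.14, while in Rag cells it was lower at -1.82. Cd151, also a tetraspanin, was lower at -0.98 in RIP-OVAhi cells.

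Of 20 protein-coding neighbours of the members, 19 were named on the array and 11 tested. Of these 11, 4 were called for RIP-OVAhi, 6 for OCS/LPS and 1 for Rag cells against naive cells, and 0 between RIP-OVAhi and OCS/LPS cells (27.0%, 32.3%, 1.82% and 2.09% of all tested probe sets). Nrp1, next to Itgb1 on chromosome 8, encodes neuropilin 1, and had 10.48 and 10.02 in RIP-OVAhi cells, 10.0 and 9.99 in OCS/LPS and 3.97 in Rag cells, against 4.69 and 5.33 in naive cells. Its difference from naive cells was 5.24 in RIP-OVAhi and 4.98 in OCS/LPS cells, from naive values near the log2 5 mark. No p is given for these, since those groups carried it through the filter. In Rag cells the difference was -1.04, not called (limma adjusted p = 0.206). Haspin, a histone kinase of mitosis whose gene lies inside the span of Itgae, had 7.79 and 7.87 in RIP-OVAhi cells, 8.13 and 8.27 in OCS/LPS and 6.18 in Rag cells, against 3.85 and 3.34 in naive cells. With naive values near background, it was at least 7.09-fold higher in RIP-OVAhi and 9.21-fold higher in OCS/LPS cells. Haspin passed the filter only through the divided cells. Outside RIP-OVAhi and OCS/LPS cells Nrp1 reached log2 5 on naive array 2 alone, so it passed through those groups. The place of both genes in the counts above follows in part from the filter. Beside Itgax, Itgam stayed between 2.42 and 2.50 on all arrays.

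For each member spanning at least 2 on the log2 scale, the 3 tested genes with the smallest root mean square difference over the 7 arrays, after centring, were named. For Itgb1 they were Capn3 (0.335), P2rx7 (0.343) and Parpbp (0.396). For Itgax they were Lgals3 (0.138), Fgl2 (0.349) and Plxdc1 (0.497). Those of Itgae were Ifit1 (0.399), Ramp1 (0.408) and Pmepa1 (0.449). Those of Cd44 were Stmn1 (0.296), Cdkn2c (0.346) and Nsd2 (0.384). The measure rests on 7 arrays that share their groups, and describes likeness only.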

How the data were processed

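The deposited table holds log2 values of 45101 probe sets on 7 Affymetrix mouse arrays. Per the submitters' processing notes the authors used GCRMA (version not stated), which corrects background, quantile-normalizes and summarises probes over all arrays together, so a shift shared by most genes cannot be seen. Per the labels' protocols, RNA (100 ng per array) was labelled by a kit with 2 cycles. Values were used as deposited (array medians 2.971 to 3.079), and the number of arrays limits the precision.

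In the platform annotation 34958 probe sets have 1 gene symbol, 932 several and 9211 none, and only the first were named. The probe set with the largest mean on the 7 arrays stands for its gene, with any others beside it. The 16140 probe sets at log2 of at least 5 on at least 2 arrays were fitted with limma 3.58.1 in R 4.3.3, with a mean per group over all 7 arrays (3 residual and 2.83 prior degrees of freedom), and p-values were adjusted by Benjamini-Hochberg over all of them in each of 6 comparisons. The single Rag array is assumed to vary like the other groups. From each list, up to 4 called genes by size per comparison could be named. The fit was tested on simulated data. The members and lists were chosen with earlier results of these data known. Alternatives were the filter, 1 probe set per gene, array centring, an intensity trend, a replicate block, only the groups compared, and leaving out each array.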

Additional observations from a re-analysis of the deposited data

How the results depend on the processing

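Over the alternatives 767 values of the member genes kept their side of the threshold, 34 lost a call and 3 gained one. No called difference changed sign. Among those not called, 13 values of 8 differences did, all within 0.097 of 0 as reported and with limma adjusted p of at least 0.557 after the change; they include Itgb1 in Rag against naive cells, at -0.152 without naive array 2. The counts moved more. All tested probe sets called numbered 4361 in RIP-OVAhi against naive cells, 5207 in OCS/LPS against naive, 294 in Rag against naive, 337 in RIP-OVAhi against OCS/LPS, 2280 in RIP-OVAhi against Rag and 2630 in OCS/LPS against Rag. With no filter they were 2500, 3075, 546 and 129 in the first 4 and 1721 in OCS/LPS against Rag. With 1 probe set per gene, which tests fewer features, they were 2429 and 2698 against naive and 1373 and 1483 against Rag. With only the arrays of the groups compared they were 2589, 3188 and, for RIP-OVAhi against OCS/LPS, 605. Leaving out 1 array in turn gave 1295 to 6191, 1541 to 7142, 63 to 2576, 29 to 605, 446 to 4637 and 474 to 5481 in the order above. The highest of each came without a naive array, the pair that differed most, and the lowest without a RIP-OVAhi or OCS/LPS array.

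Of the member genes, no filter called 0 in Rag against naive, 1 in RIP-OVAhi against OCS/LPS, 1 in RIP-OVAhi against Rag and 2 in OCS/LPS against Rag, and a filter at log2 6, which leaves out Itgax, called 1 in RIP-OVAhi against OCS/LPS. Leaving out 1 array in turn gave 0 to 1, 1 to 2, 1 to 3 and 2 to 4 in those comparisons, and 3 to 5 and 4 to 6 in RIP-OVAhi and OCS/LPS against naive. Except where fewer arrays or features enter, the cause was not tested.

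The labels give arrays of different groups the same replicate numbers but do not say that a number marks a shared day. Array 2 minus array 1 correlated over probe sets at 0.319 between RIP-OVAhi and OCS/LPS, 0.33 between RIP-OVAhi and naive and 0.123 between OCS/LPS and naive, which share no array. With the replicate block, OCS/LPS against Rag called 1628 probe sets. Itgae in RIP-OVAhi against naive cells became a call at -0.823 (limma adjusted p = 0.0238), and Itgal in RIP-OVAhi against Rag cells lost its call (adjusted p = 0.0866).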
